A study of Homo sapiens with 4 samples.

Results

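The genes described here encode the machinery that builds autophagosomes, 35 genes of the 25369 in the deposited count table. They were chosen by gene symbol, and all 35 were found under the listed symbols and had enough reads to be tested. The cells were of the human line H226, which comes from a squamous cell carcinoma of the lung and here made a short hairpin RNA when given doxycycline. In 2 samples the hairpin targeted p63 (shp63) and in the other 2 it was a non-targeting control (shControl), and all 4 samples had 1 µg/mL doxycycline for 6 days. The labels name 1 construct per group, so an effect of the hairpin itself cannot be told apart from an effect of losing p63.

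Autophagy encloses cytoplasm in a double membrane and delivers it to the lysosome. The ULK kinase complex starts the process, a class III PI3-kinase complex then marks the growing membrane with PI3P, and WIPI proteins, ATG2 lipid-transfer proteins and the ATG9 scramblase extend it. A ubiquitin-like conjugation system attaches ATG8 proteins (the LC3 and GABARAP families) to the membrane lipid phosphatidylethanolamine, and cargo receptors such as p62 bind ATG8 proteins and cargo at once. Transcript counts measure none of ATG8 lipidation, protein level or autophagic flux.

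The libraries held 51926832 to 53924761 counted reads. The targeted gene TP63 had 1596 and 1530 reads in shp63 and 7533 and 7364 reads in shControl, a 4.46-fold lower level in shp63 (log2 fold change -2.16, SE 0.041; edgeR adjusted p = 2.28e-21). Of 10 squamous or basal epithelial markers of the labelled cell type, which include the targeted gene TP63, 9 fell and KRT6A rose. Over all tested genes 37.1% fell and 36.9% rose. KRT17 and KRT5 were abundant in shControl (3898 and 757 CPM), whereas SOX2 had at most 14 reads in any library. The 10 markers summed to 3300 and 3506 CPM in shp63 and 5396 and 5283 CPM in shControl. CPM are read counts scaled to library size with TMM factors. Most of that sum was KRT17 (2971 and 3152 CPM in shp63, 3894 and 3902 CPM in shControl), which fell 1.27-fold. The median log2 fold change of the 10 markers was -2.15. Markers of other cell types were higher in shp63 for some lists. The 6 leukocyte markers summed to 78.3 and 74.3 CPM in shp63 and 13.7 and 12.3 CPM in shControl. That sum came nearly all from CD14 and CD68, while PTPRC, the defining leukocyte gene, had at most 8 reads. The 6 mesothelial markers summed to 630.0 and 636 CPM in shp63 and 334 and 361 CPM in shControl, from MSLN and UPK3B, with WT1 at 0 reads in shp63 and ITLN1 at 0 reads in every library. The 4 endothelial markers summed to 191 and 189.8 CPM in shp63 and 59.9 and 64.9 CPM in shControl, nearly all from CDH5, with at most 1 read of KDR. In that list VWF went the other way, with 62 and 71 reads in shp63 and 267 and 242 reads in shControl, a 3.57-fold fall. The 6 fibroblast markers summed to 75.1 and 67.1 CPM in shp63 and 96.7 and 102 CPM in shControl. Nearly all of that sum came from COL1A1, and DCN had 0 reads. The 5 lung epithelial markers summed to at most 3.65 CPM in any library. The part of these markers in the results below was not tested.

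Autophagy transcripts were on balance modestly higher in shp63. Of the 35 members 21 rose, 4 fell and 10 did not pass the test (edgeR quasi-likelihood, with calls at a Benjamini-Hochberg adjusted p under 0.05 over the 14901 tested genes). Of all tested genes 74.0% were called, 36.9% as higher and 37.1% as lower, while among the members 71.4% were called, 60.0% as higher and 11.4% as lower. The median log2 fold change was 0.17 over the members and -0.0077 over all tested genes, and the median absolute change was 0.20 over the members and 0.36 over all tested genes. Few members changed much: 3 were beyond 1.5-fold by a test against that size (glmTreat), or 8.57%, against 22.7% of all tested genes, and these were WIPI1, GABARAPL1 and ULK1. For 31 members (88.6%) every library of the higher group was above both of the lower group, as it was for 86.4% of all tested genes. With library totals in place of TMM factors, 18 members were higher and 8 lower, with 4658 of all tested genes higher and 6591 lower; that scaling puts the median log2 fold change at 0.080 over the members and -0.096 over all genes. With 2 samples against 2, an exact permutation test of a single gene cannot go below p = 0.333, so the calls rest on the spread between samples as shared across genes. The labels do not say whether replicates were separate cultures, so this spread may be technical. In such bulk samples a change in the makeup of the culture and a change of RNA per cell cannot be told apart.

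**Figure D1:**
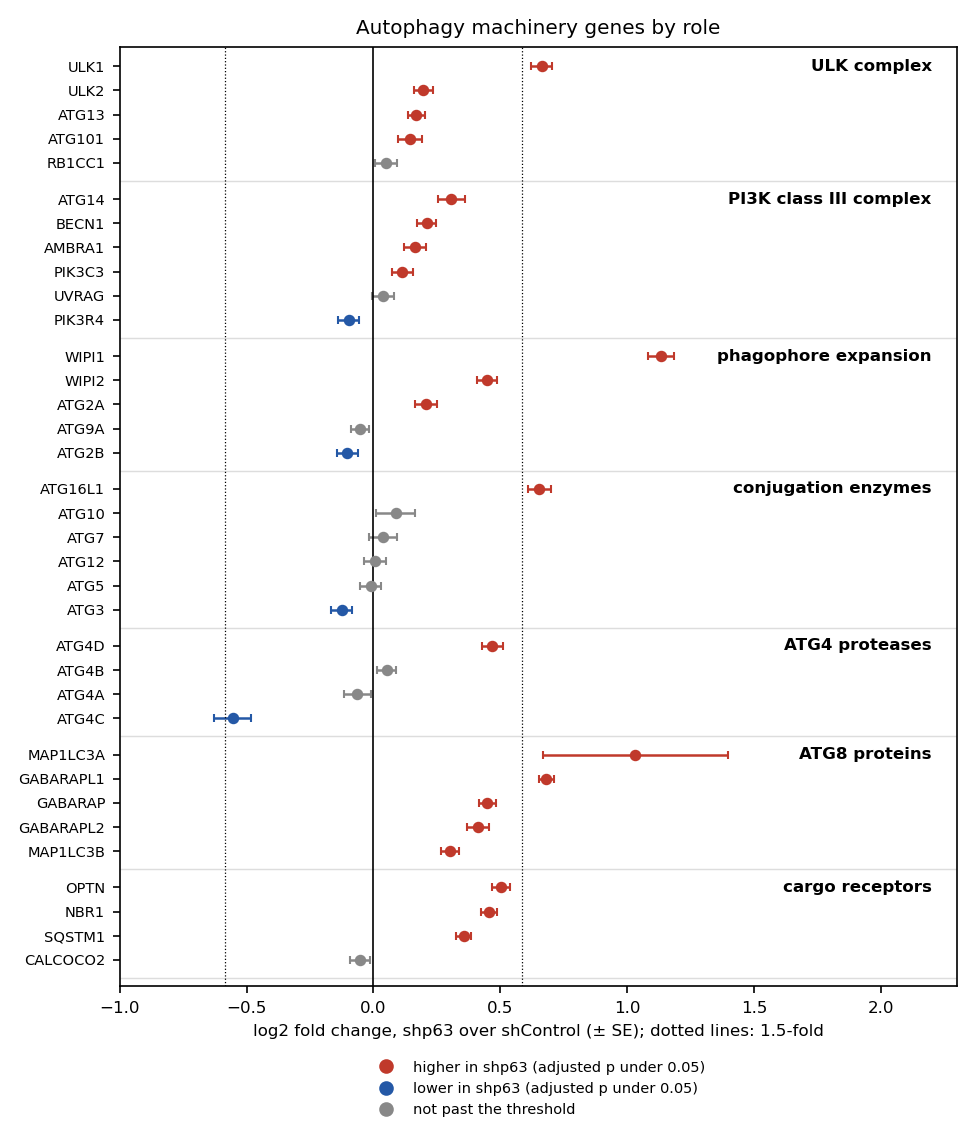
The log2 fold change of each member (horizontal axis, shp63 over shControl, bars showing the standard error) is grouped by role, with called members in colour and the 1.5-fold size as dotted lines. All 5 ATG8 genes and 3 of 4 cargo receptors lie right of 0, whereas 4 of 6 conjugation enzymes lie close to 0.

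**Figure D2:**
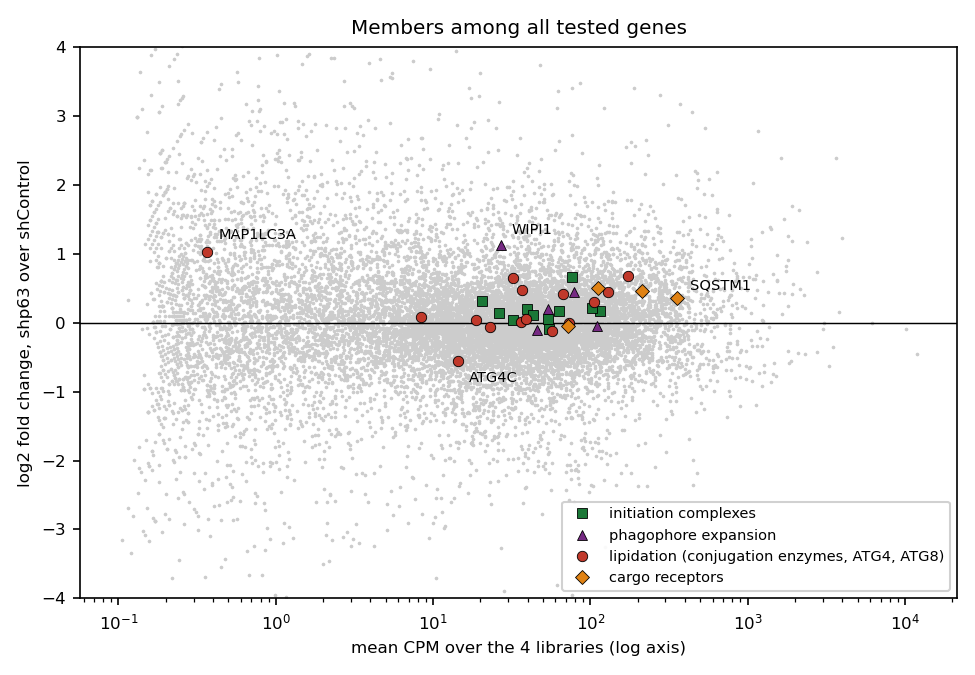
The log2 fold change (vertical axis) is plotted against the mean level over the 4 libraries (horizontal log axis, CPM) for all tested genes in grey and for members by role; 52 genes beyond a log2 change of 4 lie outside the frame. MAP1LC3A lies far left of the other members at under 1 CPM, WIPI1 is the highest point and ATG4C the lowest.

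Promoter sequences are shown for the 3 members whose transcripts changed beyond 1.5-fold, and for the 2 members whose promoter holds CACGTG, the letters at the centre of sites known to bind the autophagy and lysosome factors TFEB and TFE3 and also MYC. Each is the stretch of 250 bases before the RefSeq start (GRCh38.p14), written 5′ to 3′ along the gene, with CACGTG in capitals. They lie at chr17:68457497-68457746 (- strand) for WIPI1, chr12:10212627-10212876 (+ strand) for GABARAPL1, chr12:131894372-131894621 (+ strand) for ULK1, chr14:55411831-55412080 (- strand) for ATG14 and chr3:112561963-112562212 (- strand) for ATG3.
WIPI1: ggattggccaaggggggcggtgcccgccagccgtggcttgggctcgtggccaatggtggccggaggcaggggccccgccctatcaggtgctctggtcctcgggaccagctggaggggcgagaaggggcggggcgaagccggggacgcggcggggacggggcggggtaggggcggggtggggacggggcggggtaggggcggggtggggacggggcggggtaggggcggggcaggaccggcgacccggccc
GABARAPL1: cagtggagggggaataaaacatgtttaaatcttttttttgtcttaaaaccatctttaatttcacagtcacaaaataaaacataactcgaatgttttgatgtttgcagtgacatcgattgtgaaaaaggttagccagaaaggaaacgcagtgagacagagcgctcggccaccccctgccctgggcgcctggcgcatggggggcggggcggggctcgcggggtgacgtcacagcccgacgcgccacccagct
ULK1: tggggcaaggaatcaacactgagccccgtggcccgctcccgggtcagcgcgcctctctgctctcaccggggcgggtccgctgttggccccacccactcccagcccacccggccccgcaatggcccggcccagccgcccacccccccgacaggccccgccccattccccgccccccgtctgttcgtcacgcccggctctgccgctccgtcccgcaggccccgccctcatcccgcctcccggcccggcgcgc
ATG14: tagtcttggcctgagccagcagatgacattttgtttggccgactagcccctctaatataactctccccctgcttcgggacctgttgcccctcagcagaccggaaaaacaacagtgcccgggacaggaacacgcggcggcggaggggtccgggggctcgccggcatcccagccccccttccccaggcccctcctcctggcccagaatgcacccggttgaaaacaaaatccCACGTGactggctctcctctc
ATG3: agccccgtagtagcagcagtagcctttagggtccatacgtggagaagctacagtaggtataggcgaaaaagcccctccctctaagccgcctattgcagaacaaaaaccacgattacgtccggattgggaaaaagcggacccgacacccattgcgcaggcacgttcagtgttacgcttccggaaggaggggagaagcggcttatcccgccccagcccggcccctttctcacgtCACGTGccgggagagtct
Of the 35 members 31 were matched in the RefSeq promoter table used here. For AMBRA1, SQSTM1, NBR1 and OPTN the bases after the listed start were not found near the beginning of a GENCODE transcript of the gene. Among the 31, CACGTG, which reads the same on both strands, was present in 2 (6.45%), compared with 6.49% of all 27305 promoters and 8.63% of those of tested genes. The motif begins 21 bases before the start in ATG14, whose transcript rose, and 18 bases before the start in ATG3, whose transcript fell. None of the 3 members with the larger changes holds it in this window. The WIPI1 promoter is 79.6% G and C and the ULK1 promoter 78.0%, while the GABARAPL1 promoter is 51.6%. The AP-1 letters TGANTCA, also their own reverse complement, were in 0 of the 31, in 6.6% of all promoters and in 4.31% of those of tested genes.

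In the ULK complex 4 of 5 genes rose and RB1CC1 did not pass, while 74.0% of all tested genes were called, 36.9% as higher. ULK1, the kinase gene (GRCh37 chromosome 12, 132379167 to 132407695, plus strand), had 4942 and 4577 reads in shp63, against 3161 and 3263 reads in shControl. Both shp63 libraries were well above both shControl libraries, at 93.1 ± 2.63 CPM in shp63 and 58.9 ± 2.61 CPM in shControl (SD, n = 2 each). The rise was 1.58-fold (log2 fold change 0.66, SE 0.043; edgeR adjusted p = 4.45e-12), and against a 1.5-fold change it passed only narrowly (glmTreat adjusted p = 0.0498). ULK2, its paralog, rose slightly, with 2160 and 2137 reads in shp63 and 2008 and 2002 reads in shControl (SE 0.037 around a log2 fold change of 0.20; edgeR adjusted p = 6.97e-05). The balance of the pair shifted, a difference that was not tested: for each ULK1 read there were 0.437 and 0.467 ULK2 reads in the shp63 libraries and 0.635 and 0.614 in the shControl libraries. ATG13, the adaptor that recruits the kinase, rose 1.12-fold, with 6386 and 6073 reads in shp63 and 5968 and 5882 in shControl (log2 fold change 0.17, SE 0.034; edgeR adjusted p = 0.000121). ATG101, its partner, had 1459 and 1362 reads in shp63 and 1367 and 1359 in shControl, with a 1.11-fold rise (edgeR adjusted p = 0.00971) that was lost without shp63 replicate 1 (adjusted p = 0.0749), with DESeq2 (adjusted p = 0.0984) and with library totals (adjusted p = 0.288). RB1CC1, encoding the scaffold FIP200, had 2828 and 2733 reads in shp63 and 3033 and 2715 in shControl, and its groups overlapped (log2 fold change 0.049, SE 0.045; edgeR adjusted p = 0.329).

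Of the 6 class III PI3-kinase genes 4 rose, PIK3R4 fell and UVRAG did not pass, with log2 fold changes between -0.10 and 0.31. Over all tested genes 74.0% were called, 36.9% as higher. ATG14, the subunit that directs the complex to autophagy, rose 1.24-fold, with 1212 and 1094 reads in shp63 and 999 and 992 reads in shControl (log2 fold change 0.31, SE 0.055; edgeR adjusted p = 3.45e-05). BECN1, encoding the core subunit Beclin 1, rose 1.16-fold, with 5615 and 5683 reads in shp63 and 5331 and 5117 in shControl (log2 fold change 0.21, SE 0.037; edgeR adjusted p = 2.61e-05). Exons of FBXO34 on the other strand cover 22.2% of the canonical ATG14 transcript, and FBXO34 had 2840 and 2746 reads in shp63 and 3131 and 2947 in shControl. AMBRA1, a Beclin 1 regulator, rose 1.12-fold, with 3453 and 3409 reads in shp63 and 3423 and 3126 in shControl (edgeR adjusted p = 0.00176, or 0.105 with library totals). PIK3C3, the catalytic subunit gene, had 2293 and 2288 reads in shp63 and 2390 and 2140 in shControl. Its 1.08-fold rise (edgeR adjusted p = 0.0199) was lost without shp63 replicate 2 (adjusted p = 0.191), without shControl replicate 2 (adjusted p = 0.388), with library totals (adjusted p = 0.588) and with DESeq2 (adjusted p = 0.138). PIK3R4, a regulatory subunit gene, had 2745 and 2608 reads in shp63 and 3123 and 3001 in shControl. Its 1.07-fold fall was near the threshold (edgeR adjusted p = 0.0389), and was lost without shp63 replicate 2 (adjusted p = 0.127), without shControl replicate 1 (adjusted p = 0.135), with RLE factors (adjusted p = 0.053) and with DESeq2 (adjusted p = 0.133). UVRAG, which joins the alternative complex of endosomal traffic, had 32.5 ± 0.501 CPM in shp63 and 31.6 ± 0.693 CPM in shControl (SD, n = 2 each).

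Among the genes of membrane expansion, WIPI1 showed the largest change of the 35 members. It encodes a PI3P-binding protein of the phagophore and lies on GRCh37 chromosome 17 from 66417089 to 66453654 on the minus strand. WIPI1 had 1915 and 1905 reads in shp63 and 972 and 890 reads in shControl. The groups were far apart relative to their spread, with 37.4 ± 0.836 CPM in shp63 and 17.0 ± 0.689 CPM in shControl (SD, n = 2 each), a 2.19-fold rise (log2 fold change 1.13, SE 0.050; edgeR adjusted p = 4.70e-15). Exons of ARSG on the other strand cover 28.3% of the canonical WIPI1 transcript, and ARSG had 347 and 342 reads in shp63 and 300 and 321 in shControl. WIPI2, the paralog that recruits ATG16L1 to the membrane, rose 1.36-fold, with 4716 and 4534 reads in shp63 and 3666 and 3592 in shControl (log2 fold change 0.45, SE 0.039; edgeR adjusted p = 9.32e-10). For each WIPI1 read there were 2.46 and 2.38 WIPI2 reads in shp63 and 3.77 and 4.04 in shControl. The lipid-transfer paralogs parted: ATG2A rose, with 2941 and 2984 reads in shp63 and 2806 and 2688 in shControl (log2 fold change 0.21, SE 0.043; edgeR adjusted p = 0.000199), while ATG2B fell 1.07-fold, with 2312 and 2209 reads in shp63 and 2731 and 2463 in shControl. The ATG2B fall was near the threshold (edgeR adjusted p = 0.0318) and was lost with DESeq2 (adjusted p = 0.161), without shp63 replicate 1 (adjusted p = 0.0504) or 2 (adjusted p = 0.124) and without shControl replicate 1 (adjusted p = 0.413). ATG9A, the scramblase gene, had 109 ± 2.35 CPM in shp63 and 113 ± 2.33 CPM in shControl (SD, n = 2 each) and did not pass.

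The enzymes that conjugate ATG8 proteins stayed near their control level, with ATG16L1 as the exception. ATG16L1, which sets the site of lipidation on the membrane (GRCh37 chromosome 2, 234118697 to 234204320, plus strand), had 2084 and 1957 reads in shp63 and 1356 and 1388 reads in shControl. Its groups did not overlap, as was so for 86.4% of all tested genes. The rise was 1.57-fold (log2 fold change 0.65, SE 0.044; edgeR adjusted p = 1.03e-11), though not beyond 1.5-fold by test (glmTreat adjusted p = 0.0822). ATG3, the E2-like enzyme, fell 1.09-fold, with 2832 and 2725 reads in shp63 and 3269 and 3212 in shControl (log2 fold change -0.13, SE 0.042; edgeR adjusted p = 0.0107). The other 4 did not pass, so that 33.3% of this group were called, against 74.0% of all tested genes. ATG5 and ATG12, the partners in the conjugate that binds ATG16L1, had 73.2 and 36.4 CPM in shp63 and 73.8 and 36.2 CPM in shControl, with log2 fold changes of -0.012 (SE 0.040) and 0.0048 (SE 0.043). ATG7, the E1-like enzyme gene, had 19.0 CPM in shp63 and 18.5 CPM in shControl (SE 0.054 around a log2 fold change of 0.037). Exons of VGLL4 on the other strand cover 29.9% of the canonical ATG7 transcript. VGLL4 had 67.8 CPM in shp63 and 64.3 CPM in shControl. ATG10, the E2-like enzyme for ATG12, had 8.70 CPM in shp63 and 8.18 CPM in shControl (SE 0.078 around a log2 fold change of 0.087). Exons of RPS23 on the other strand share 374 bases with ATG10 exons, though none with its canonical transcript. RPS23 had 453 CPM in shp63 and 748 CPM in shControl.

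The 4 ATG4 proteases, which trim ATG8 proteins before conjugation and release them afterwards, went different ways. Of these 50% were called, against 74.0% of all tested genes. ATG4D (GRCh37 chromosome 19, 10654571 to 10664094, plus strand) rose 1.38-fold, with 2290 and 2101 reads in shp63 and 1691 and 1701 in shControl (log2 fold change 0.47, SE 0.041; edgeR adjusted p = 7.75e-10). ATG4C (GRCh37 chromosome 1, 63249803 to 63331187, plus strand) fell 1.47-fold, with 555 and 637 reads in shp63 and 982 and 892 in shControl (log2 fold change -0.56, SE 0.073; edgeR adjusted p = 7.74e-07). This was the largest fall among the members. The groups of ATG4C did not overlap, as was so for 86.4% of all tested genes. ATG4B, the main ATG8 protease, had 2077 and 1951 reads in shp63 and 2120 and 2030 in shControl, and ATG4A had 1193 and 1115 reads in shp63 and 1353 and 1227 in shControl, neither past the threshold. For each ATG4B read there were 1.10 and 1.08 ATG4D reads in shp63 and 0.798 and 0.838 in shControl, and 0.267 and 0.326 ATG4C reads in shp63 and 0.463 and 0.439 in shControl. Exons of KRI1 on the other strand cover 17.0% of the canonical ATG4D transcript, and KRI1 fell (log2 fold change -0.65, SE 0.050).

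All 5 ATG8 genes rose, 4 of them abundant and the fifth, MAP1LC3A, with few reads. For comparison, 36.9% of all tested genes rose. GABARAPL1 (GRCh37 chromosome 12, 10365057 to 10375727, plus strand) had 10905 and 10791 reads in shp63 and 7313 and 7159 in shControl. The shp63 libraries were at 209.6 and 215 CPM and the shControl libraries at 132 and 133 CPM, a rise well beyond the spread within groups (log2 fold change 0.68, SE 0.029; edgeR adjusted p = 3.31e-15), which was also beyond 1.5-fold by test (glmTreat adjusted p = 0.00202). GABARAP rose 1.37-fold, with 7945 and 7412 reads in shp63 and 6252 and 5773 in shControl (log2 fold change 0.45, SE 0.034; edgeR adjusted p = 8.67e-11). GABARAPL2, also called GATE-16, rose 1.33-fold, with 3880 and 3906 reads in shp63 and 3243 and 3015 in shControl (log2 fold change 0.41, SE 0.042; edgeR adjusted p = 1.26e-08). MAP1LC3B, encoding LC3B, the usual marker of autophagosomes, rose 1.23-fold, with 5982 and 5968 reads in shp63 and 5333 and 5033 in shControl (log2 fold change 0.30, SE 0.036; edgeR adjusted p = 1.25e-07). In each of these 4 genes every shp63 library was above every shControl library. The groups also did not overlap for 86.4% of all tested genes.

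MAP1LC3A was almost silent, with 32 and 18 reads in shp63 and 11 and 15 reads in shControl. Its 2.04-fold rise had a wide error (log2 fold change 1.03, SE 0.365; edgeR adjusted p = 0.0149), was not called by DESeq2 (adjusted p = 0.166), and without shp63 replicate 1 its log2 fold change was 0.59 (edgeR adjusted p = 0.302). It was not called without shControl replicate 1 either (log2 fold change 0.80, edgeR adjusted p = 0.101). Per kilobase of canonical transcript, GABARAP and GABARAPL1 were the most abundant ATG8 transcripts, at 114 and 113 CPM per kb in shp63 and 83.5 and 70.4 CPM per kb in shControl. GABARAPL1 made up 31.1% and 31.6% of the ATG8 level per kilobase in the shp63 libraries and 26.9% and 27.9% in the shControl libraries. The share of MAP1LC3B was at most 15.3% in the shp63 libraries and 17.2% in both shControl libraries. These genes have processed copies elsewhere in the genome, and how reads shared with those were assigned is not given; GABARAPL3 and MAP1LC3B2 had at most 5 reads in any library.

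**Figure D3:**
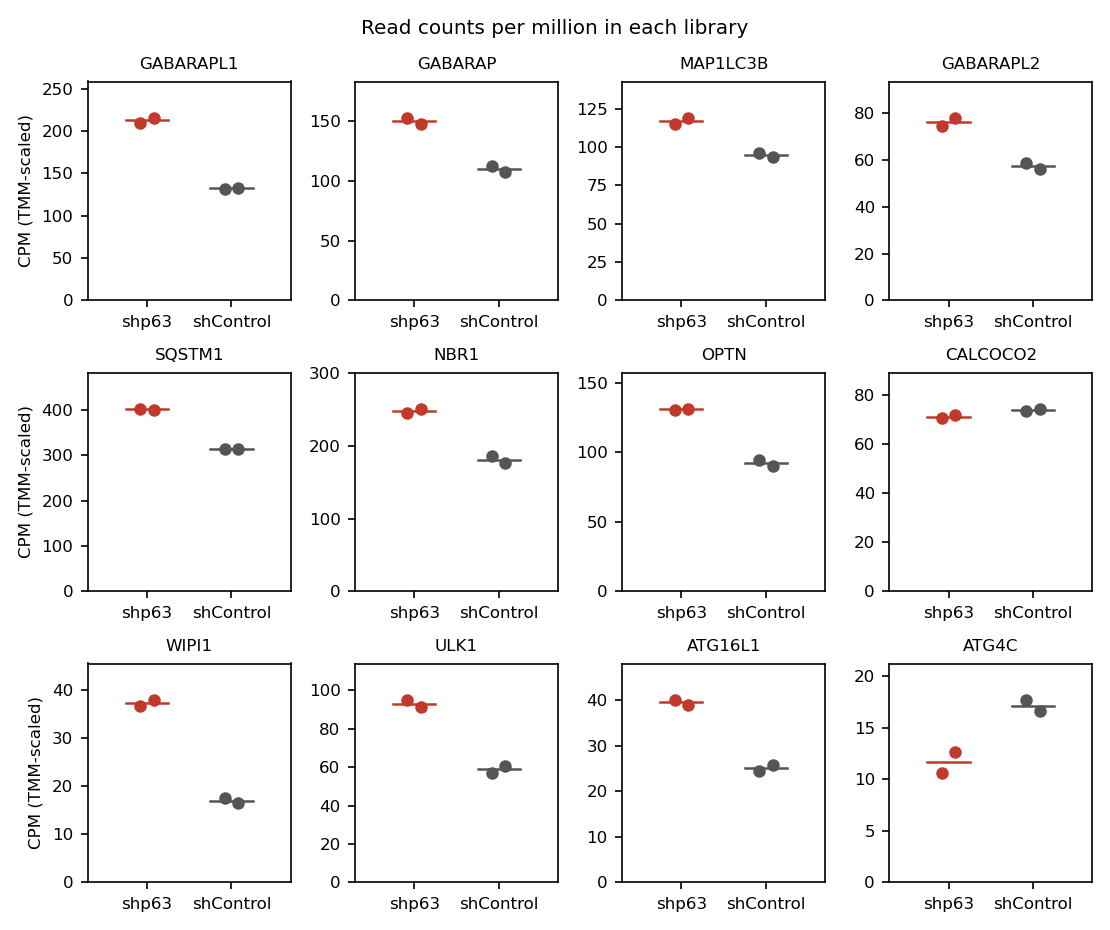
Each panel gives the level of 1 gene (vertical axis, CPM after TMM scaling, from 0) in the 2 shp63 libraries (red, left) and the 2 shControl libraries (grey, right), with the group mean as a line. GABARAPL1 stands at 209.6 and 215 CPM in shp63 against 132 and 133 CPM in shControl, while CALCOCO2 differs little and ATG4C is lower in shp63.

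Of the 4 cargo receptors 3 rose and CALCOCO2 did not pass, while of all tested genes 74.0% were called, 36.9% as higher. SQSTM1, encoding p62, which links ubiquitin-tagged cargo to ATG8 proteins (GRCh37 chromosome 5, 179233398 to 179265078, plus strand), was the most abundant member per kilobase, at 141 CPM per kb in shp63 and 110.5 CPM per kb in shControl. It had 20943 and 20097 reads in shp63 and 17400 and 16866 reads in shControl, a 1.28-fold rise (log2 fold change 0.36, SE 0.029; edgeR adjusted p = 3.31e-10). NBR1, a receptor related to p62, rose 1.37-fold, with 12764 and 12567 reads in shp63 and 10288 and 9469 in shControl (log2 fold change 0.46, SE 0.031; edgeR adjusted p = 1.44e-11). OPTN, encoding optineurin, a receptor for mitochondria and bacteria, rose 1.42-fold, with 6794 and 6581 reads in shp63 and 5257 and 4848 in shControl (log2 fold change 0.50, SE 0.036; edgeR adjusted p = 2.58e-11). In all of these the groups lay apart by more than their spread. Groups did not overlap in any of the 4 receptors, CALCOCO2 included, nor in 86.4% of all tested genes. CALCOCO2, encoding NDP52, a receptor for bacteria and mitochondria, had 3674 and 3597 reads in shp63 and 4080 and 3992 in shControl (log2 fold change -0.055, SE 0.040; edgeR adjusted p = 0.219). Together the receptors summed to 849 and 854 CPM in shp63 and 668 and 654 CPM in shControl.

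Further autophagy genes, in 5 lists written by function, had more rises than falls, except upstream of the pathway. Of 70 such genes 67 were tested, of which 42 rose and 14 fell, and their median log2 fold change was 0.19; of all tested genes 36.9% rose and 37.1% fell. With library totals in place of TMM factors 31 of the 67 rose and 19 fell, where 4658 of all tested genes rose and 6591 fell. Of 12 tested other core genes 11 rose and MAP1LC3C did not pass. VMP1, a lipid scramblase of the endoplasmic reticulum, rose 1.77-fold, with 119 ± 0.0589 CPM in shp63 and 67.2 ± 1.83 CPM in shControl (SD, n = 2 each). ATG9B, the second ATG9 gene, rose 8.83-fold from a low level, with 298 and 200 reads in shp63 and 34 and 26 reads in shControl. WDR45, which encodes WIPI4, rose by 0.58 on the log2 scale.

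Among 13 tested further cargo and mitophagy receptors 9 rose and 2 fell. That was 84.6% called and 69.2% higher, against 74.0% and 36.9% of all tested genes. The receptors of endoplasmic reticulum turnover CCPG1, TEX264 and RETREG1 had the smallest p among the rises. CCPG1 rose 2.97-fold, with 1859 and 1818 reads in shp63 and 682 and 640 in shControl. TEX264 rose 1.89-fold and RETREG1, listed as FAM134B, rose 1.78-fold. PHB2, a mitochondrial inner membrane receptor, and BNIP3, a mitophagy receptor of hypoxia, fell 1.26-fold and 1.12-fold. Of 12 genes of fusion with the lysosome 9 rose and VPS16 fell, or 83.3% called and 75% higher. VPS18, a subunit of the tethering complexes HOPS and CORVET, rose by 1.17 on the log2 scale, with 147 ± 2.64 CPM in shp63 and 65.4 ± 2.42 CPM in shControl (SD, n = 2 each), while VAMP8 and RAB7A rose 1.35-fold and 1.21-fold.

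The 23 upstream kinase and nutrient-sensing genes were divided, with 9 higher (39.1%) and 9 lower (39.1%) and a median log2 fold change of -0.011. These values were close to those of all tested genes, of which 36.9% were higher and 37.1% lower, with a median of -0.0077. The beta subunits of AMPK, the energy-sensing kinase, went opposite ways. PRKAB1 rose 2.17-fold, with 3571 and 3420 reads in shp63 and 1757 and 1686 in shControl, and PRKAB2 fell 1.78-fold, with 1828 and 1734 reads in shp63 and 3407 and 3371 in shControl. For each PRKAB1 read there were 0.512 and 0.507 PRKAB2 reads in shp63 and 1.94 and 2.00 in shControl. RRAGB, a GTPase that signals amino acid supply to mTORC1, rose 1.65-fold, and PRKAA2, a catalytic subunit gene of AMPK, rose 1.30-fold. SESN1, a stress-induced inhibitor of mTORC1, fell 1.85-fold and DDIT4, another such inhibitor, fell 1.69-fold, with 14933 and 14401 reads in shp63 and 27811 and 25250 in shControl. MTOR itself had 55.6 ± 1.21 CPM in shp63 and 54.0 ± 1.01 CPM in shControl (SD, n = 2 each) and did not pass. Among 7 tested transcription factors of autophagy genes 4 rose (FOXO4, FOXO1, FOXO3 and TFEB) and 2 fell (TFE3 and ZKSCAN3). FOXO4, FOXO1 and FOXO3, forkhead factors that act downstream of AKT, rose 1.87-fold, 1.39-fold and 1.27-fold. TFEB rose 1.36-fold, to 23.4 ± 0.153 CPM in shp63 against 17.1 ± 0.336 CPM in shControl (SD, n = 2 each), and its relative TFE3 fell 1.22-fold. ZKSCAN3, a repressor of autophagy genes, fell 1.16-fold.

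**Figure D4:**
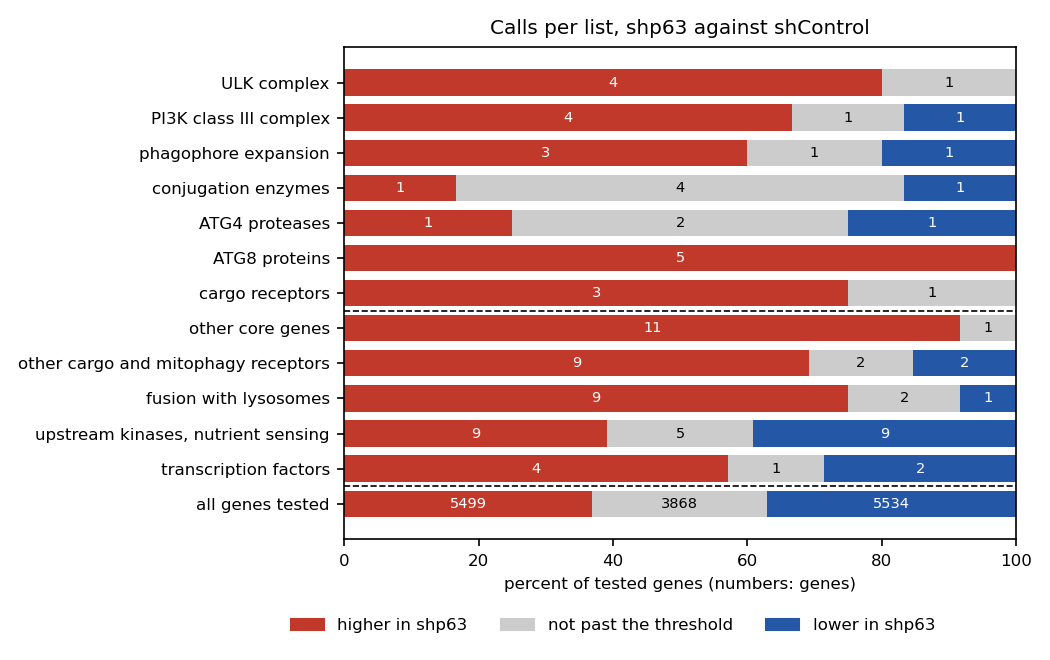
Stacked bars give the percent of tested genes per list (horizontal axis) that were higher in shp63, not past the threshold or lower, with the number of genes written in each part; dashed lines separate the members, the other pathway lists and all genes tested. The ATG8 bar is wholly higher (5 of 5), the conjugation enzymes are mostly not past the threshold (4 of 6), and among all genes 5499 were higher and 5534 lower.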

How the data were processed

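Poly(A) RNA of 4 H226 samples was sequenced after a stranded library kit. Per the submitters' processing notes, reads were aligned with TopHat2 2.0.13 to GRCh37 and counted per gene with HTSeq 0.6.1, and the authors deposited whole-number read counts per gene without normalization. Which annotation and strand setting the counting used is not given in the sources used here. Exons of 12 members overlap a gene on the other strand, so reads there are uncertain, as they are for paralogs.

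Counts were tested with edgeR 4.0.16 (R 4.3.3): TMM factors, filterByExpr (minimum count 10, minimum total 15), a robust quasi-likelihood fit of group over all 4 libraries, and Benjamini-Hochberg adjustment over 14901 genes, calling at 0.05. Standard errors come from the fold change and its F statistic. glmTreat tested against a 1.5-fold change. At this depth precision was lowest for MAP1LC3A. Replicate libraries differed beyond counting noise (chi-square per degree of freedom 3.74 in shp63 and 3.43 in shControl), and all were kept as separate samples. Such an excess cannot tell separate cultures from separate libraries of 1 culture. The fit was also run on simulated data as a check of the code. These were drawn with the spread that the fit itself had estimated, so they cannot test that spread. Canonical transcript lengths and positions are from GENCODE lifted to GRCh37, and promoters from RefSeq.

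Members and lists were chosen with earlier results of these data known. Named are, per role group, members beyond 1.5-fold and up to 3 of smallest adjusted p per direction, and per other list up to 3 per direction; the remaining members are given more briefly. MTOR, TFEB, MAP1LC3C and the ratios of related genes were also named after their values were seen. Alternatives were RLE factors, library totals, no filter, 1 CPM in 2 libraries, DESeq2 1.42.0, limma-voom 3.58.1, a replicate block and leaving out each library.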

Additional observations from a re-analysis of the deposited data

How the results depend on the processing

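Of the 25 called members, 19 kept their direction and call under every alternative other than the 1.5-fold test; ATG101, PIK3C3, PIK3R4, AMBRA1, ATG2B and MAP1LC3A lost theirs under at least 1. Against a 1.5-fold change 3385 genes, 3 members and 14 of the other pathway genes were called, because that test asks for a larger change. The number of called members was 20 with DESeq2 and 22 to 24 with a library left out. Library totals lower all log2 fold changes nearly alike (the median of all genes was -0.096, against -0.0077 with TMM), which by itself turned members near 0 negative: RB1CC1 (-0.039), UVRAG (-0.049), ATG7 (-0.051), ATG10 (-0.0011), ATG12 (-0.083) and ATG4B (-0.035). Library totals also made ATG9A (-0.14), CALCOCO2 (-0.14), ATG4A (-0.15) and ATG5 (-0.10) called as lower, which they were not with TMM. With a library left out, RB1CC1 ranged from -0.016 to 0.10, ATG5 from -0.037 to 0.0034 and ATG12 from -0.047 to 0.056. The cause of the sign changes with a library left out was not tested. Replicate numbers are not said to mark a shared batch, and same-numbered libraries deviated with a correlation of -0.24. The replicate block gave 10858 called genes and 24 called members (PIK3R4 lost), and a crossed pairing, chosen after seeing the data, gave 11387 and 25.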
